A study of Homo sapiens with 24 samples.

Results

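HEK293T cells that had received the *FMR4* plasmid were compared with cells that had received the empty vector at 24 h after transfection. The comparison used 6 of the 24 arrays of the series, 3 of FMR4 pcDNA3.1 and 3 of CTRL pcDNA3.1, and took in 18395 genes, which is every gene that the probe annotation names by a single symbol, each read by its probe set of highest mean level. HEK293T is an established line of human embryonic kidney origin. FMR4 pcDNA3.1 cells were given 0.5 ug of the pcDNA3.1 expression vector carrying *FMR4*, CTRL pcDNA3.1 cells were given 0.5 ug of pcDNA3.1 without an insert, and Lipofectamine 2000CD was the carrier in both. Each array held 1 biological replicate, made by pooling technical replicates, so the spread between arrays is that between biological replicates. The other arrays of the series hold the same plasmids at 6 h, and FMR4 siRNA and CTRL siRNA at both times. Every transfected and untransfected cell of a dish was read together, so that fewer cells with a transcript and less of it per cell cannot be told apart.

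*FMR4* is a long noncoding RNA transcribed from the opposite strand to *FMR1*, the gene that is silenced in fragile X syndrome and encodes the RNA-binding protein FMRP. *FMR4* and *FMR1* start next to each other at a shared CpG-rich promoter region and run in opposite directions, and *FMR4* is known to be lost together with *FMR1* in the full mutation. RNAs of this kind can act on the gene beside them or on distant genes, and expression from a plasmid away from the chromosomal locus addresses the action on distant genes.

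In the RefSeq annotation of GRCh38.p14 *FMR4* is a synonym of *FMR1-AS1*, whose gene lies at chrX:147909431-147911817, and *FMR1* lies at chrX:147911919-147951125. The interval between both start sites is shown because it places the chromosomal start of *FMR4* beside the gene whose level was read. Each CG dinucleotide is in capitals, on the strand of *FMR1*.
FMR1 to FMR1-AS1 chrX 147911818 to 147911918: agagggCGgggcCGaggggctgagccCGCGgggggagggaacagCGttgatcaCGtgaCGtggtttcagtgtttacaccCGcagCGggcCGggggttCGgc
These 101 bases hold 11 CG dinucleotides. The 300-base window that RefSeq coordinates give around the start of *FMR1*, 250 bases before it and 50 from it on, holds 37, that of *FMR1-AS1* holds 45, and the median over 35116 such windows of all genes is 14. At least 1 CG stands in 96.0% of those windows. No probe set of the array carries the symbol, a synonym or any of the 4 RefSeq transcripts of *FMR1-AS1*, so the level that *FMR4* reached was not read.

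The deposited values are log2 levels, with array medians over all genes between 8.16 and 8.21. The 10 markers of the HEK293 line, such as the neurofilament genes and vimentin, were all above the upper quartile of the olfactory receptor genes (5.77 on the log2 scale). Genes above that level (15646, or 85.1%) are called expressed below. The 10 markers averaged 10.24 to 10.35 on the FMR4 pcDNA3.1 arrays and 10.30 to 10.33 on the CTRL pcDNA3.1 arrays. Markers of 10 other tissues averaged between 5.67 and 7.13 on every array of either group, and the ranges of FMR4 pcDNA3.1 and CTRL pcDNA3.1 overlapped for all 10 lists. In each list 3 to 7 markers were above 5.77, from 3 of 7 endothelial and 4 of 7 hepatocyte to 7 of 10 T and B cell and 3 of 3 erythroid markers. The word expressed thus marks a level on the array only, and does not separate genes of HEK293T cells from those of other tissues. Relative to the mean of the CTRL pcDNA3.1 arrays, the median gene lay at −0.034, −0.013 and −0.028 on the 3 FMR4 pcDNA3.1 arrays, against 0.016, 0.013 and −0.031 on the CTRL pcDNA3.1 arrays. The third control array thus lay among those of FMR4 pcDNA3.1, and the first and second control arrays were brighter.

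No gene passed the test at 24 h. Of 18395 genes tested, 0 (0%) were higher and 0 (0%) were lower in FMR4 pcDNA3.1 at an adjusted p under 0.05 (limma, Benjamini-Hochberg), and the lowest adjusted p was 0.999. At an unadjusted p under 0.05 there were 602 genes (3.27%), of which 118 (0.641%) were higher and 484 (2.63%) were lower. After each array was centred on its own median these were 260 higher and 249 lower, so that the excess of lower genes was lost. The arrays of the groups did not overlap for 469 genes (2.55%) with FMR4 pcDNA3.1 higher and 1739 genes (9.45%) with FMR4 pcDNA3.1 lower. The difference was below 0 for 11835 genes (64.3%), with a median of −0.026 and quartiles of −0.073 and 0.021.

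The differences were also small in size. No gene differed by 0.5 or more on the log2 scale, and 135 genes differed by 0.25 or more. The lowest difference was −0.46, of the cone opsin gene *OPN1LW*, and the highest was 0.42, of the olfactory receptor gene *OR2T4*, which was named after its values were seen. The 95% confidence interval of the difference, with a median half-width of 0.166, lay wholly within 0.5 on either side of 0 for 18178 genes (98.8%) and within 0.25 for 11932 genes (64.9%). For 217 genes (1.18%) the interval reached 0.5 on at least one side. The standard deviation of the differences over genes was 0.076, against 0.071 for the same plasmids at 6 h. In FMR4 siRNA against CTRL siRNA at 24 h, which shares no array with the plasmid comparison, it was 0.146, and 192 genes there differed by 0.5 or more.

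**Figure D1:**
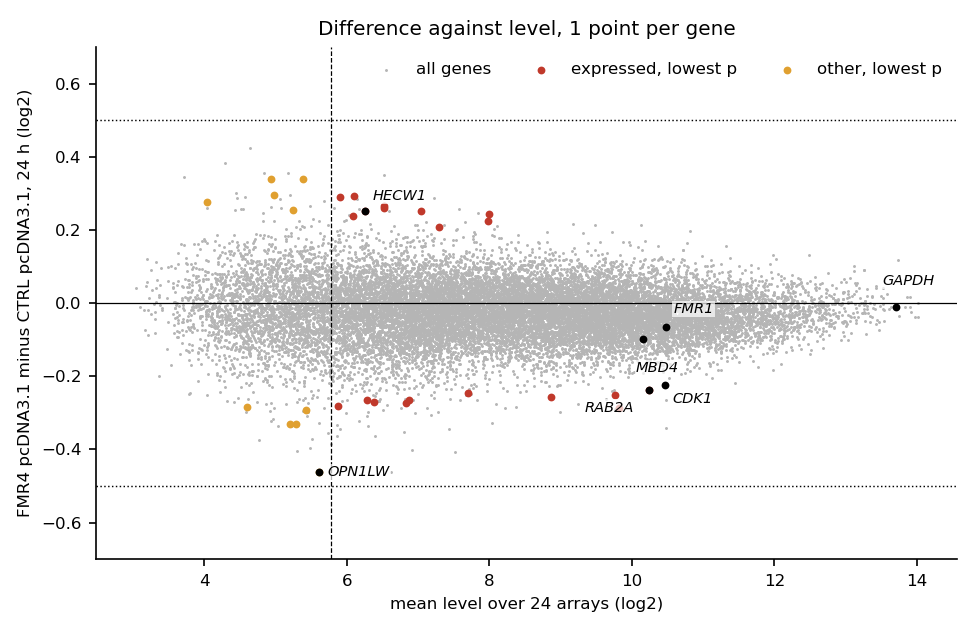
Difference between FMR4 pcDNA3.1 and CTRL pcDNA3.1 at 24 h (vertical axis, log2) against the mean level over 24 arrays (horizontal axis, log2), 1 point per gene. All 18395 points lie between the dotted lines at 0.5 on either side of 0, and the dashed line marks the level of 5.77 above which a gene is taken as expressed.

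The 10 expressed genes of lowest p on the higher side were of different kinds. They were drawn from the 379 genes (2.06%) that were expressed, higher in FMR4 pcDNA3.1 and had arrays that did not overlap. The lowest p among these belonged to *HECW1*, an E3 ubiquitin ligase of the *NEDD4* family. *HECW1* was at 6.41, 6.48 and 6.55 on the FMR4 pcDNA3.1 arrays, against 6.07, 6.29 and 6.33 on the CTRL pcDNA3.1 arrays, a difference of 0.25 ± 0.066 (SE). *KRTAP4-4*, a keratin-associated protein of hair, was at 8.09, 8.12 and 8.15 in FMR4 pcDNA3.1, against 7.88, 7.95 and 7.79 in CTRL pcDNA3.1. All 3 arrays of FMR4 pcDNA3.1 were above the highest control array for both genes. *TNP1*, which packs sperm chromatin in place of histones, was at 6.31, 6.18 and 6.14 in FMR4 pcDNA3.1, against 5.92, 5.91 and 5.92 in CTRL pcDNA3.1. *OSR1*, a zinc finger transcription factor of kidney development, was at 7.186, 6.987 and 7.266 in FMR4 pcDNA3.1, against 6.840, 6.945 and 6.899 in CTRL pcDNA3.1. For *OSR1* the second FMR4 pcDNA3.1 array was only just above the highest control array.

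*CEBPA-DT*, the divergent transcript of the *CEBPA* promoter, was at 6.69, 6.62 and 6.77 in FMR4 pcDNA3.1 and 6.32, 6.55 and 6.41 in CTRL pcDNA3.1. *DNAL4*, a light chain of axonemal dynein, was at 8.263, 8.099 and 8.302 in FMR4 pcDNA3.1, against 8.053, 8.053 and 7.890 in CTRL pcDNA3.1. The calcium-binding protein gene *NECAB2* was at 7.421, 7.537 and 7.513 in FMR4 pcDNA3.1, against 7.373, 7.274 and 7.201 in CTRL pcDNA3.1. These 3 genes differed by 0.27, 0.22 and 0.21, with gaps between the groups that were smaller than the spread within them. *SMCR5* and *LOC442028* made up the rest, with differences of 0.29 ± 0.082 and 0.26 ± 0.086 (SE). None of these genes passed the test after adjustment.

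The tenth higher gene was *MIR130B*, which encodes a microRNA of the miR-130 family. Its mature strands are shown with the seed, bases 2 to 8, in capitals, together with let-7f, the microRNA of the gene with the lowest difference among all microRNA genes.
hsa-miR-130b-3p: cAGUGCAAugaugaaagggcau
hsa-miR-130b-5p: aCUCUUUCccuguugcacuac
hsa-let-7f-5p: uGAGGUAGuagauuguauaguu
The 3 seeds differ from each other. In RefSeq coordinates on GRCh38.p14 these strands lie at chr22:21653354-21653375, chr22:21653316-21653336 and chr9:94176353-94176374, all on the plus strand. *MIR130B* was at 6.07, 6.28 and 6.26 in FMR4 pcDNA3.1, against 5.89, 6.01 and 5.99 in CTRL pcDNA3.1, a difference of 0.24 ± 0.067 (SE). *MIRLET7F1* was at 6.13, 6.25 and 6.27 in FMR4 pcDNA3.1, against 6.74, 6.67 and 6.62 in CTRL pcDNA3.1, and differed by −0.46 ± 0.200. The arrays were apart for both genes, and the standard error of *MIRLET7F1*, which comes from the spread within all 8 conditions of the series, was the wider one. The probe sets are annotated to the microRNA genes, and the mature strands were not measured apart. Of 185 microRNA genes, 5 (2.7%, against 2.55% of all genes) had arrays apart upwards and 6 (3.24%, against 9.45%) downwards, and their median was −0.015, which turned to 0.0076 after median centring. Over all genes 2.55% were apart upwards and 9.45% downwards.

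The 10 expressed genes of lowest p on the lower side were also of different kinds, chosen by rank and not as lists. They were drawn from the 1570 genes (8.53%) that were expressed, lower in FMR4 pcDNA3.1 and had arrays that did not overlap. *LRRC37A11P*, a pseudogene of the LRRC37A family, had the lowest p of all genes and was at 6.39, 6.37 and 6.45 in FMR4 pcDNA3.1, against 6.69, 6.68 and 6.65 in CTRL pcDNA3.1. It differed by −0.27 ± 0.058 (SE), and copies of this family share sequence, so that its probe set may read several of them. *NSG2*, a neuronal vesicle protein, was at 5.59, 5.91 and 5.85 in FMR4 pcDNA3.1, against 6.02, 6.08 and 6.09 in CTRL pcDNA3.1. *DRC10*, a subunit of the dynein regulatory complex of cilia, was at 6.74, 6.65 and 6.84 in FMR4 pcDNA3.1, against 7.11, 7.06 and 6.87 in CTRL pcDNA3.1. In *NSG2* the first FMR4 pcDNA3.1 array stood well below the other FMR4 pcDNA3.1 arrays, and in *DRC10* the third control array stood near those of FMR4 pcDNA3.1. *DNAH14*, an axonemal dynein heavy chain, was at 9.781, 9.685 and 9.633 in FMR4 pcDNA3.1, against 9.896, 10.050 and 9.910 in CTRL pcDNA3.1.

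*RAB2A*, a GTPase of transport between the endoplasmic reticulum and the Golgi apparatus, had the highest level among these 10 genes. It was at 10.12, 10.21 and 10.18 in FMR4 pcDNA3.1, against 10.39, 10.47 and 10.36 in CTRL pcDNA3.1, a difference of −0.24 ± 0.063 (SE) with a 95% interval of −0.37 to −0.11. *ZBTB8OS*, which encodes the archease of the tRNA ligase complex, was at 9.79, 9.76 and 9.73 in FMR4 pcDNA3.1, against 10.01, 10.26 and 9.87 in CTRL pcDNA3.1. *UBE2NL*, a copy of the ubiquitin-conjugating enzyme gene *UBE2N*, was at 8.63, 8.79 and 8.64 in FMR4 pcDNA3.1, against 8.92, 9.05 and 8.87 in CTRL pcDNA3.1. For *ZBTB8OS* the spread lay almost wholly among the control arrays. *FAM13C*, *CD247* (the zeta chain of the T cell receptor) and *PLEKHA4* were the others, with differences of −0.27, −0.27 and −0.25.

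**Figure D2:**
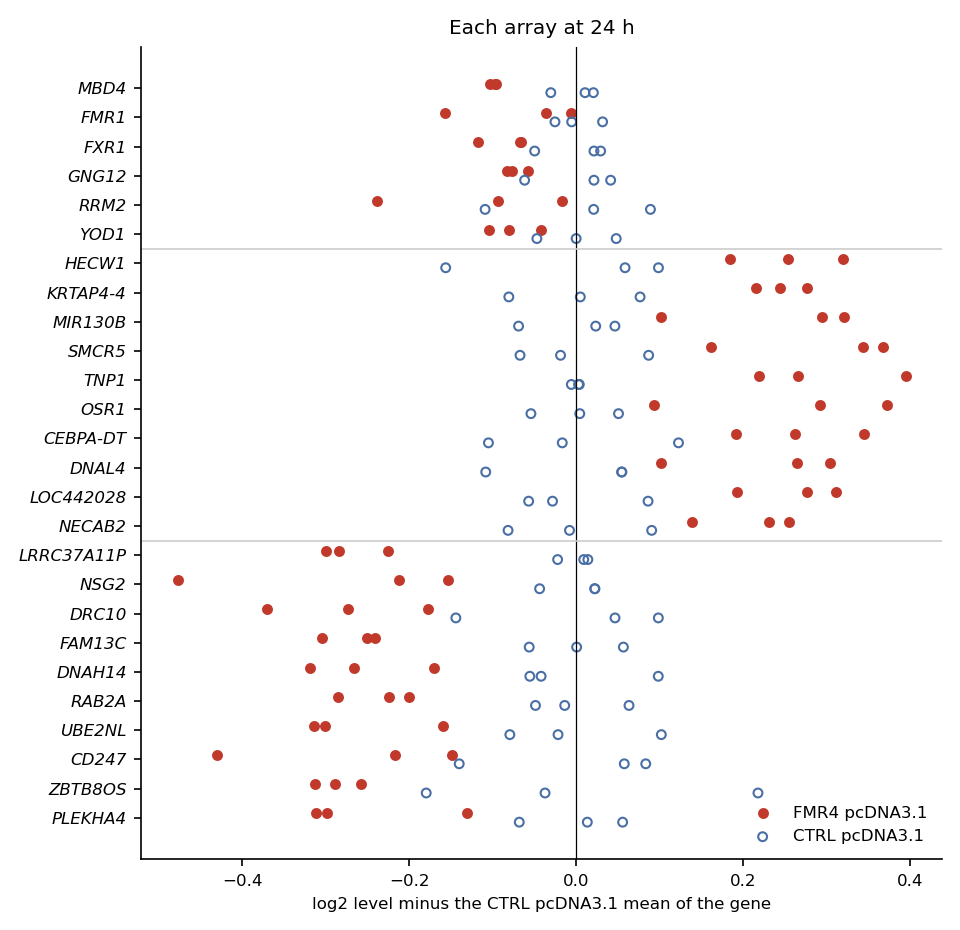
Each point is 1 array at 24 h, as the log2 level minus the CTRL pcDNA3.1 mean of the gene (horizontal axis), with FMR4 pcDNA3.1 as filled and CTRL pcDNA3.1 as open points. The upper block holds *FMR1*, *FXR1*, *MBD4* and 3 further genes, and the middle and lower blocks hold the 10 higher and 10 lower expressed genes of lowest p, whose groups do not overlap because they were chosen so.

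Below the level taken as expressed, the genes of lowest p included genes of leukocytes, skin, retina and olfaction. *CCR2* and *CCR4*, chemokine receptors of leukocytes, differed by 0.34 ± 0.090 and 0.34 ± 0.102 (SE). *CCR2* was at 5.101, 5.257 and 5.168 in FMR4 pcDNA3.1, against 4.867, 4.782 and 4.862 in CTRL pcDNA3.1. *SPRR2B* of the cornified envelope, the ether lipid enzyme *AGMO* and the phosphatase gene *PPEF1* differed by 0.296, 0.28 and 0.26. On the lower side *OPN1LW* was at 5.47, 5.29 and 5.55 in FMR4 pcDNA3.1, against 5.88, 5.98 and 5.85 in CTRL pcDNA3.1, and its near-identical neighbours among the opsin genes can share its probes. *CASP4*, an inflammatory caspase, was at 4.542, 4.468 and 4.446 in FMR4 pcDNA3.1, against 4.736, 4.673 and 4.898 in CTRL pcDNA3.1. The olfactory receptor genes *OR5A2* and *OR51L1* and the gene *PGCKA1* differed by −0.29, −0.33 and −0.33. As levels this low carry little signal of the gene, the values are given as those of the probe sets.

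At the locus of *FMR4* itself, the chromosomal genes were near their control levels. *FMR1* was at 10.36, 10.39 and 10.24 in FMR4 pcDNA3.1, against 10.39, 10.43 and 10.37 in CTRL pcDNA3.1, so that the groups overlapped, and the difference was −0.067 ± 0.060 (SE), with a 95% interval of −0.19 to 0.058. At 6 h the difference was −0.058 ± 0.060 (SE). *AFF2*, the gene of the neighbouring FRAXE fragile site, was at 6.809, 7.113 and 7.151 in FMR4 pcDNA3.1, against 6.864, 7.024 and 7.003 in CTRL pcDNA3.1. *FMR1NB*, the testis-expressed neighbour of *FMR1*, was at 6.59, 6.53 and 6.52 in FMR4 pcDNA3.1, against 6.54, 6.71 and 6.49 in CTRL pcDNA3.1. Over the 17 genes measured at chrX:145247503-150990771, 11 were below 0, and the differences ran from −0.146 (*MTM1*) to 0.138 (*SLITRK2*), with a median of −0.042, against −0.037 for all 694 genes of the X chromosome.

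FMRP has the paralogs *FXR1* and *FXR2*, which bind RNA and each other. *FXR1* was at 10.85, 10.84 and 10.79 in FMR4 pcDNA3.1, against 10.94, 10.93 and 10.86 in CTRL pcDNA3.1, and differed by −0.084 ± 0.062 (SE). The arrays did not overlap, although the third control array lay just above the highest FMR4 pcDNA3.1 array. *FXR2* was at 10.156, 10.248 and 10.096 in FMR4 pcDNA3.1, against 10.265, 10.155 and 10.168 in CTRL pcDNA3.1. Of the 19 measured genes of the fragile X family and its partners, 0 passed the test. Of these, 15 (78.9%, against 64.3% of all genes) were below 0 and 5 (26.3%, against 9.45%) had arrays apart downwards. With all genes in 10 bins by level, the bin that holds this list's median level (10.74) had 15.6% apart downwards and 73.2% below 0. The median of the 19 genes, −0.032, was close to that of all genes. It was −0.0089 after median centring, and with single arrays left out it was lowest without the third control array (−0.061) and highest without the second (−0.016).

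*MBD4* encodes a DNA glycosylase of base excision repair with a methyl-CpG-binding domain. The study picked it from these same arrays as a gene that opposes *FMR4*, and then followed it in separate experiments. Its direction in the plasmid and siRNA arrays is thus no independent evidence. It was at 10.03, 10.03 and 10.02 in FMR4 pcDNA3.1, against 10.14, 10.13 and 10.09 in CTRL pcDNA3.1. All 3 FMR4 pcDNA3.1 arrays lay below the lowest control array, and they were nearly equal. The difference was −0.099 ± 0.052 (SE), with a 95% interval of −0.21 to 0.0097, and it did not pass the test (adjusted p = 0.999, limma). The difference at 6 h was −0.061 ± 0.052 (SE), and the difference between times of −0.038 ± 0.074 did not pass either. In FMR4 siRNA against CTRL siRNA at 24 h *MBD4* differed by 0.066. The list of DNA methylation and methyl-CpG-binding genes, 22 in number, had 13 members below 0 and a median of −0.033. Its member of lowest p was *MBD2*, at 9.850, 9.816 and 9.752 in FMR4 pcDNA3.1, against 9.995, 9.977 and 9.842 in CTRL pcDNA3.1, and *TET3* on the higher side differed by 0.065 ± 0.063 (SE).

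The study also followed *GNG12*, *RRM2* and *YOD1*, which are in its list of genes that oppose *FMR4*, by quantitative PCR. It did so in human neurospheres transduced with an *FMR4* lentivirus, so cells, vector and time differ from those of the arrays. There it reported *GNG12* and *YOD1* as higher and *RRM2* as lower with *FMR4*. *GNG12*, a G protein gamma subunit, was at 10.972, 10.997 and 10.978 in FMR4 pcDNA3.1, against 11.076, 11.096 and 10.993 in CTRL pcDNA3.1. *RRM2*, the small subunit of ribonucleotide reductase, was at 10.69, 10.61 and 10.46 in FMR4 pcDNA3.1, against 10.72, 10.79 and 10.59 in CTRL pcDNA3.1. *YOD1*, a deubiquitinase, was at 10.65, 10.59 and 10.61 in FMR4 pcDNA3.1, against 10.65, 10.74 and 10.69 in CTRL pcDNA3.1. The groups overlapped for all 3, and the differences were −0.073, −0.12 and −0.075. The direction of *GNG12* and *YOD1* was thus opposite to that reported in neurospheres, and that of *RRM2* was the same. The reference transcripts *GAPDH* and *MALAT1* differed by −0.0095 ± 0.047 and −0.036 ± 0.14 (SE). *GAPDH* turned to 0.013 after median centring and to 0.0075 without the first FMR4 pcDNA3.1 array, and *MALAT1* turned to 0.019 when its probe sets were averaged and to 0.059 without the second control array. The signs of *FXR2*, *AFF2* and *FMR1NB* also turned when single arrays were left out.

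Families of genes were set against the median of all genes, −0.026, because the first and second control arrays were brighter than the other arrays. Of 47 families, 44 had a median below 0, 27 after median centring and 22 after quantile normalization, and 24 had one below that of all genes. The medians ran from −0.063 to 0.033, and no member of any family passed the test. For a single family, the kinesins, the array medians of FMR4 pcDNA3.1 lay wholly below those of CTRL pcDNA3.1. For the other families the array medians of the groups overlapped. Leaving out a single array moved the median of 45 families by over 1.5 times and turned the sign of 18, so the medians below are descriptions of these 6 arrays. The median of all genes itself was −0.041 without the third control array.

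**Figure D3:**
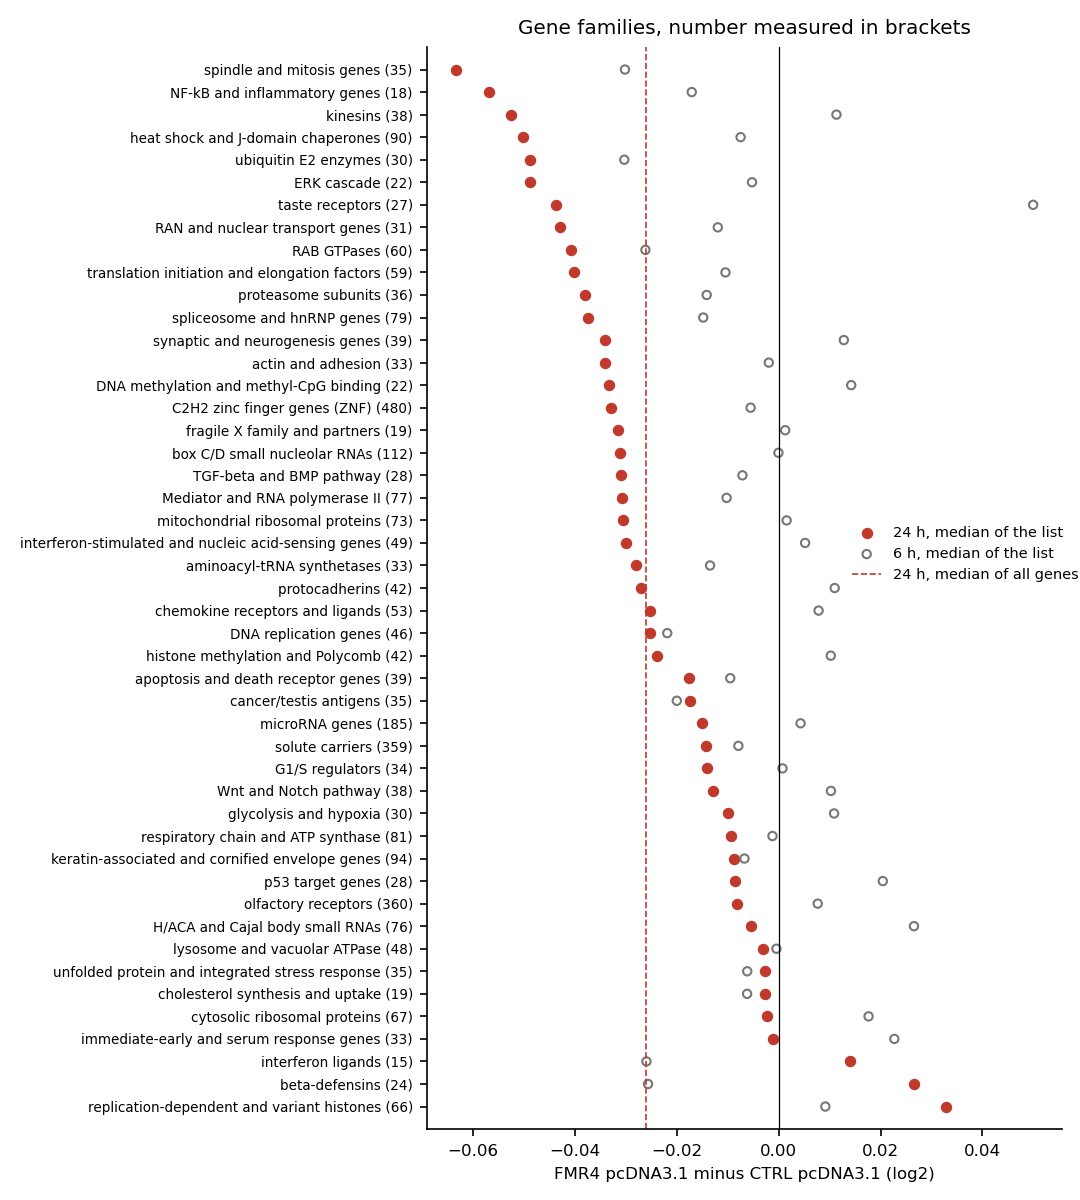
Median difference between FMR4 pcDNA3.1 and CTRL pcDNA3.1 (horizontal axis, log2) for 47 families, with the number of genes measured in brackets, at 24 h (filled) and 6 h (open). The dashed line is the median of all genes at 24 h, −0.026, about which the filled points spread from −0.063 to 0.033.

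The spindle and mitosis genes had the lowest median of the 47 families on the levels as deposited, and after quantile normalization that of the NF-kB genes was the lowest at −0.038. Of 35 spindle and mitosis genes 32 were below 0 (64.3% of all genes were), and the median was −0.063, or −0.041 after median centring. Arrays were apart downwards for 7 (20%, against 9.45% of all genes) and upwards for 0. In the level bin that holds the list's median level of 10.82, 15.6% of genes were apart downwards and 73.2% were below 0. The median gene of this list lay at −0.054, −0.041 and −0.118 on the FMR4 pcDNA3.1 arrays and at 0.040, 0.040 and −0.051 on the CTRL pcDNA3.1 arrays. The third control array lay among those of FMR4 pcDNA3.1. Without it the median was −0.0999, and without the second control array it was −0.041. *CDK1*, the kinase that drives entry into mitosis, was at 10.290, 10.390 and 10.296 in FMR4 pcDNA3.1, against 10.500, 10.608 and 10.538 in CTRL pcDNA3.1, a difference of −0.22 ± 0.064 (SE). The members with arrays apart were *CDK1*, its cyclin *CCNB2*, the checkpoint genes *BUB1*, *BUB1B*, *BUB3* and *TTK*, and the kinetochore gene *NUF2*, none of which passed the test. At 6 h the median of the list was −0.030.

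Kinesins, the motors that walk along microtubules, had a median of −0.053 over 38 genes, of which 30 were below 0. *KIF11*, *KIF20A*, *KIF23*, *KIF2C* and *KIF4A* are also in the spindle and mitosis list, so these lists are not separate observations. Their median span was 56.9 kb. With all genes in 4 bins by span, the median of the bin that holds each kinesin averaged −0.034 over the list. On the arrays, the median kinesin lay at −0.050, −0.044 and −0.074 in FMR4 pcDNA3.1 and at −0.013, 0.059 and −0.043 in CTRL pcDNA3.1. The third control array was barely above the second FMR4 pcDNA3.1 array, and the spread among the control arrays was far wider than that gap. Without the third control array the median was −0.085. Arrays were apart downwards for 8 kinesins (21.1%, against 9.45% of all genes and 10.2% of the level bin that holds their median level). They were apart upwards for 0 (2.55% of all genes). The 8 apart downwards included motors of the transport of vesicles and organelles (*KIF5A*, *KIF5B*, *KIF3A*, *KIF3C*, *KIF13A* and *KIF16B*). *KIF3B*, the kinesin of lowest p, was at 9.07, 9.17 and 8.84 in FMR4 pcDNA3.1, against 9.26, 9.17 and 9.15 in CTRL pcDNA3.1, and here the groups overlapped. The median of the kinesins at 6 h was 0.011.

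Other stages of the cell cycle lay nearer to the bulk of genes. The 46 DNA replication genes had a median of −0.025, which turned to 0.0058 after quantile normalization, with 33 below 0, and the 34 regulators of the G1 to S transition had one of −0.014, which turned to 0.0085 after median centring. *CDT1*, which licenses replication origins, was at 9.803, 9.564 and 9.695 in FMR4 pcDNA3.1, against 9.523, 9.546 and 9.490 in CTRL pcDNA3.1, and *ORC4* of the origin recognition complex was at 9.876, 9.801 and 9.769 in FMR4 pcDNA3.1, against 9.885, 10.052 and 9.874 in CTRL pcDNA3.1. Of 28 targets of p53, 14 were below 0, and *DDB2*, a DNA damage sensor, differed by 0.12 ± 0.085 (SE). Of 39 genes of apoptosis, 24 were below 0, and the median of −0.018 turned to 0.0051 after median centring.

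Histones had the highest median of the 47 families on the levels as deposited. Their median span was 0.50 kb, which falls in the bin of the shortest genes (up to 8.41 kb). In that bin the median difference was −0.0092, and arrays were apart upwards for 162 of 4599 genes and downwards for 248. Of 66 replication-dependent and variant histone genes 46 were above 0, 8 (12.1%, against 2.55% of all genes) had arrays apart upwards and 2 (3.03%, against 9.45%) downwards, and the median was 0.033, or 0.056 after median centring. The median histone lay at 0.067, −0.0028 and 0.042 on the FMR4 pcDNA3.1 arrays and at −0.0045, 0.024 and −0.033 on the CTRL pcDNA3.1 arrays. The second FMR4 pcDNA3.1 array lay among the controls. With single arrays left out the median was 0.015 without the first and 0.050 without the second FMR4 pcDNA3.1 array, and 0.056 without the second and 0.016 without the third control array. *H2AC21* was at 12.490, 12.527 and 12.513 in FMR4 pcDNA3.1, against 12.409, 12.398 and 12.332 in CTRL pcDNA3.1, a difference of 0.13 ± 0.051 (SE). *H2AJ*, a variant made outside of S phase, was at 6.92, 7.01 and 7.05 in FMR4 pcDNA3.1, against 7.16, 7.28 and 7.14 in CTRL pcDNA3.1. Histone genes of a cluster are close copies of each other, so their probe sets are not independent.

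**Figure D4:**
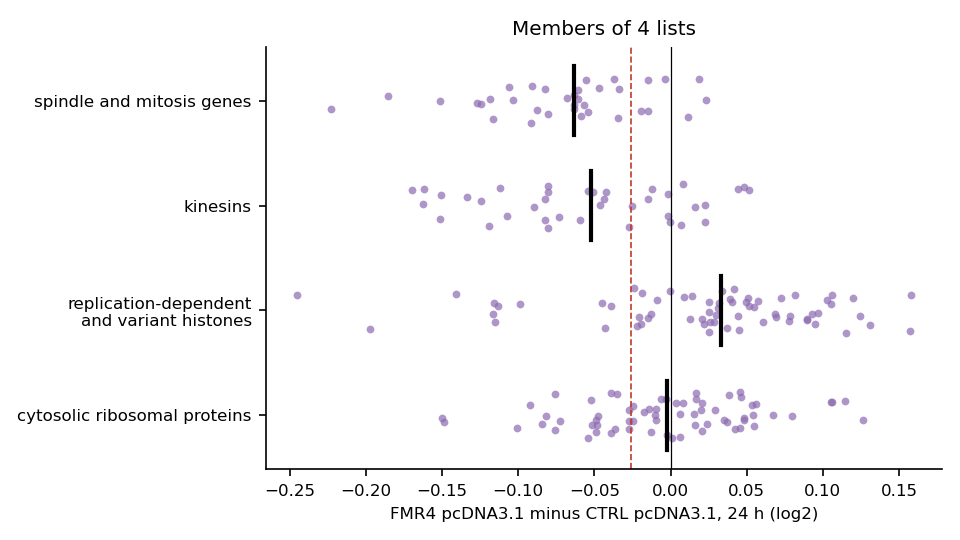
Difference between FMR4 pcDNA3.1 and CTRL pcDNA3.1 at 24 h (horizontal axis, log2) for every member of 4 lists, 1 point per gene, with the median as a black bar and the median of all genes as a dashed line. The bars stand at −0.063 for spindle and mitosis genes, −0.053 for kinesins, 0.033 for histones and −0.0023 for cytosolic ribosomal proteins, and the points of all 4 lists overlap widely.

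Among the machinery of chromatin and transcription, medians were close to that of all genes. The 42 genes of histone methylation and the Polycomb group had a median of −0.024, which turned to 0.0065 after quantile normalization. *CBX2*, a Polycomb chromodomain protein, was at 9.13, 9.19 and 9.12 in FMR4 pcDNA3.1, against 9.33, 9.31 and 9.17 in CTRL pcDNA3.1. The 77 genes of Mediator and RNA polymerase II had a median of −0.031. The 480 zinc finger genes of the ZNF series had one of −0.033, with the arrays of 41 genes (8.54%, against 9.45% of all genes) apart downwards and of 5 (1.04%, against 2.55%) upwards. The 79 genes of the spliceosome and the hnRNP proteins had a median of −0.038, and 65 of them were below 0. Its members of lowest p on each side, *SNRPD1* and *SNRPD2*, are both core proteins of the spliceosomal ring, with 10.410, 10.444 and 10.400 in FMR4 pcDNA3.1, against 10.594, 10.517 and 10.521 in CTRL pcDNA3.1, for *SNRPD1*. *SNRPD2* was at 9.98, 9.99 and 9.96 in FMR4 pcDNA3.1, against 9.95, 9.89 and 9.81 in CTRL pcDNA3.1.

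For genes that make, fold and break down proteins the medians ran from that of the chaperones to that of the ribosomal proteins. The 67 cytosolic ribosomal protein genes had 34 members below 0 and a median of −0.0023, which turned to 0.020 after median centring, whereas the 90 heat shock and J-domain chaperones had 67 below 0, a median of −0.050 and 16 genes (17.8%, against 9.45% of all genes) with arrays apart, all downwards. In the level bin that holds the chaperones' median level, 12.9% of genes were apart downwards. Without the second control array the median of the chaperones was −0.028, and without the third FMR4 pcDNA3.1 array it was −0.033. The chaperones *HSPA8*, *HSP90AA1* and *HSPH1* of the cytosol were among those 16. In the 90 are also pseudogenes, and one of these, *HSP90B3P*, had the lowest p, at 6.42, 6.53 and 6.21 in FMR4 pcDNA3.1, against 6.68, 6.81 and 6.54 in CTRL pcDNA3.1. The stress-inducible *HSPA6* was at 6.545, 6.820 and 6.780 in FMR4 pcDNA3.1, against 6.600, 6.471 and 6.581 in CTRL pcDNA3.1. The 59 initiation and elongation factors had a median of −0.040, with *EIF3E*, a subunit of initiation factor 3, at 11.102, 11.103 and 11.042 in FMR4 pcDNA3.1, against 11.276, 11.426 and 11.163 in CTRL pcDNA3.1. The 36 proteasome subunits had a median of −0.038, and *PSMC6*, an ATPase of the base, differed by −0.16 ± 0.058 (SE). Of 30 ubiquitin E2 enzymes 26 were below 0, with a median of −0.049.

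Both groups had received plasmid DNA and lipid carrier, which cells can sense as foreign. The 49 interferon-stimulated and nucleic acid-sensing genes had a median of −0.030, close to that of all genes, which turned to 0.0010 after quantile normalization. Their members of lowest p were *IFIH1*, which encodes the RNA sensor MDA5, at 5.115, 4.995 and 5.177 in FMR4 pcDNA3.1, against 4.905, 4.971 and 4.987 in CTRL pcDNA3.1, and *SAMHD1*, at 10.650, 10.604 and 10.626 in FMR4 pcDNA3.1, against 10.723, 10.845 and 10.654 in CTRL pcDNA3.1. The 18 genes of NF-kB and inflammation had a median of −0.057, with array medians of −0.112, −0.011 and −0.00051 in FMR4 pcDNA3.1, against 0.0075, −0.012 and 0.032 in CTRL pcDNA3.1. The first FMR4 pcDNA3.1 array was the low one, and without it the median was −0.018. *NFKBIA*, the inhibitor of NF-kB, was at 10.31, 10.38 and 10.31 in FMR4 pcDNA3.1, against 10.53, 10.39 and 10.52 in CTRL pcDNA3.1. The 35 genes of the unfolded protein and integrated stress responses had a median of −0.0028, which turned to 0.020 after median centring. In this list 4 genes (11.4%, against 2.55% of all genes), *CHAC1*, *DDIT3*, *SLC3A2* and *TRIB3*, had arrays apart upwards and 0 downwards (9.45% of all genes). These 4 are named because their arrays were apart. Of all 35 members 18 were below 0, and 0 had an unadjusted p under 0.05 in either direction (limma). *CHAC1*, *DDIT3* (the transcription factor CHOP) and *TRIB3* differed by 0.11 ± 0.12, 0.13 ± 0.11 and 0.11 ± 0.11 (SE). *SLC3A2*, an amino acid transporter chain, was at 11.76, 11.73 and 11.75 in FMR4 pcDNA3.1, against 11.66, 11.63 and 11.64 in CTRL pcDNA3.1. *MTHFD2* of folate metabolism had the lowest difference of the list, −0.18. It was at 11.84, 12.01 and 11.82 in FMR4 pcDNA3.1, against 12.04, 12.19 and 11.99 in CTRL pcDNA3.1.

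Families of signalling, trafficking and the nervous system followed. The 22 genes of the ERK cascade had a median of −0.049 and 15 members below 0, and the median without the first control array was −0.0018. The 38 genes of Wnt and Notch had one of −0.013, which turned to 0.0098 after median centring, and the 28 genes of TGF-beta and BMP had one of −0.031. In that list *ID3*, an inhibitor of differentiation factors, was at 9.76, 9.68 and 9.63 in FMR4 pcDNA3.1, against 9.62, 9.39 and 9.43 in CTRL pcDNA3.1, and *TGFBR1*, a receptor chain, was at 9.998, 10.049 and 9.920 in FMR4 pcDNA3.1, against 10.139, 10.145 and 10.056 in CTRL pcDNA3.1. The 60 RAB GTPases, which include *RAB2A*, had a median of −0.041, with the arrays of 9 genes (15%, against 9.45% of all genes) apart downwards and of 0 upwards. Of 39 synaptic and neurogenesis genes 24 were below 0, with a median of −0.034, and *NSG2* was the lowest. *ITGA6*, the integrin alpha-6 chain and the lowest of 33 genes of actin and adhesion, was at 9.302, 9.210 and 9.289 in FMR4 pcDNA3.1, against 9.396, 9.549 and 9.497 in CTRL pcDNA3.1. In the 42 protocadherins, which share exons within a cluster, *PCDHA10* was at 7.202, 7.109 and 7.209 in FMR4 pcDNA3.1, against 6.753, 7.062 and 7.066 in CTRL pcDNA3.1. *PCDHA12* was at 7.097, 6.821 and 6.991 in FMR4 pcDNA3.1, against 7.251, 7.181 and 7.158 in CTRL pcDNA3.1.

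Families of metabolism and the organelles were next. The 81 genes of the respiratory chain and ATP synthase had a median of −0.0093, which turned to 0.013 after median centring. Arrays were apart upwards for 3 genes (3.70%, against 2.55% of all genes) and downwards for 10 (12.3%, against 9.45%). The downward share was 15.6% in the level bin that holds the median level of this list. Of its members, that of lowest p on the lower side was *NDUFB1* of complex I, at 8.393, 8.403 and 8.494 in FMR4 pcDNA3.1, against 8.562, 8.805 and 8.594 in CTRL pcDNA3.1, and that on the higher side was *NDUFB11* of the same complex, at 12.11, 12.03 and 12.05 in FMR4 pcDNA3.1, against 12.02, 11.93 and 11.87 in CTRL pcDNA3.1. The 73 mitochondrial ribosomal proteins had a median of −0.031, which turned to 0.0020 after a trend with level was subtracted. The 19 genes of cholesterol synthesis and uptake had one of −0.0027, which turned to 0.020 after median centring. Its members of lowest p on each side, *PMVK* and *IDI1*, both act in the mevalonate part of that pathway. *PMVK* was at 7.91, 7.94 and 7.87 in FMR4 pcDNA3.1, against 7.81, 7.68 and 7.78 in CTRL pcDNA3.1, and *IDI1* was at 10.98, 11.05 and 10.92 in FMR4 pcDNA3.1, against 11.18, 11.04 and 11.14 in CTRL pcDNA3.1. The medians of 30 genes of glycolysis and hypoxia (−0.0099), 48 of the lysosome and the vacuolar ATPase (−0.0031) and 359 solute carriers (−0.014) all turned positive after median centring. The 31 genes of nuclear transport had a median of −0.043, with the arrays of 7 genes (22.6%, against 9.45% of all genes) apart downwards and of 0 upwards. The downward share was 16.3% in the brightest level bin, which holds the median level of that list. The 33 aminoacyl-tRNA synthetases had a median of −0.028, which turned to 0.00031 after quantile normalization.

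The next families hold genes best known from other tissues, together with the immediate-early genes, and their levels differed. The 24 beta-defensins and the 15 interferon ligands both had a median level of 4.65, below the level taken as expressed, whereas 72 of 94 genes of keratin-associated proteins and the cornified envelope and 32 of 53 chemokines and their receptors were above it. The beta-defensins had a median difference of 0.026, which turned to −0.012 without the third FMR4 pcDNA3.1 array, and the interferon ligands had one of 0.014, which was −0.0062 at the lowest when single arrays were left out. The 27 taste receptors had a median of −0.044 at 24 h and 0.050 at 6 h. The genes of keratin-associated proteins and the cornified envelope (−0.0088) and the 35 cancer/testis antigens (−0.017) turned positive after median centring. Of the chemokines and their receptors 7 (13.2%, against 2.55% of all genes) had arrays apart upwards and 3 (5.66%, against 9.45%) downwards, with a median of −0.025 that turned to 0.0026 after quantile normalization and to 0.021 without the first FMR4 pcDNA3.1 array. The 33 immediate-early and serum response genes were all above the level taken as expressed. Of these 17 were below 0, and *JUNB*, a subunit of AP-1, differed by 0.103 ± 0.093 (SE).

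Among small nucleolar RNAs a difference between replicates exceeded that between plasmids. The 112 box C/D RNAs had medians of −0.0056, 0.017 and −0.109 on the FMR4 pcDNA3.1 arrays and 0.031, 0.031 and −0.073 on the CTRL pcDNA3.1 arrays. In both groups the third array was the lowest. The 76 H/ACA and Cajal body RNAs gave 0.023, 0.063 and −0.112 in FMR4 pcDNA3.1, against 0.026, 0.053 and −0.072 in CTRL pcDNA3.1, with the third array lowest again in both. *SNORD79*, the box C/D RNA of lowest difference, was at 10.161, 10.178 and 10.133 in FMR4 pcDNA3.1, against 10.474, 10.697 and 10.328 in CTRL pcDNA3.1. The 360 olfactory receptor genes, silent in most tissues, had a median of −0.0083, which turned to 0.014 after median centring, with the arrays of 12 genes (3.33%, against 2.55% of all genes) apart upwards and of 24 (6.67%, against 9.45%) downwards.

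The study published lists of genes that follow *FMR4* and genes that oppose it, which it drew from these same arrays, so their direction here is no independent evidence. Of 135 concordant genes 94 were above 0, and the median was 0.036. The median gene of that list lay at −0.042, 0.069 and 0.083 on the FMR4 pcDNA3.1 arrays and −0.018, 0.011 and 0.013 on the CTRL pcDNA3.1 arrays, with the first FMR4 pcDNA3.1 array below all controls. Without that array the median was 0.073, without the second FMR4 pcDNA3.1 array it was 0.013, without the third it was 0.012, and without the first control array it was 0.016. At 6 h the median was −0.051. Of 76 discordant genes 63 were below 0, with a median of −0.062 at 24 h and 0.011 at 6 h. With single arrays left out it was −0.083 at the lowest at 24 h, −0.041 without the third FMR4 pcDNA3.1 array and −0.038 without the first control array. *DCBLD2*, the discordant gene of lowest p, was at 10.92, 10.95 and 10.86 in FMR4 pcDNA3.1, against 11.13, 11.07 and 11.02 in CTRL pcDNA3.1. No gene of either list passed the test at 24 h.

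A gradient ran with the length of genes. When genes were put into 4 bins of equal number by their span in RefSeq, the median difference was −0.0092 in the bin of the shortest genes (up to 8.41 kb), −0.017 and −0.032 in the middle bins and −0.042 in the bin of the longest genes (from 65.8 kb). The share of genes below 0 was 54.0% in the shortest and 74.7% in the longest bin, and arrays were apart downwards for 5.39% and 12.4% of them. Among genes above the median level the medians were 0.0022, −0.015, −0.036 and −0.049 from the shortest to the longest bin. The median of the longest minus that of the shortest bin, −0.033 over all genes, was −0.054 without the first FMR4 pcDNA3.1 array and −0.020 without the second control array. The arrays of a group were not alike over all genes. In the shortest and the longest bin the medians were −0.038 and −0.034 on the first FMR4 pcDNA3.1 array, 0.012 and −0.037 on the second, and 0.0022 and −0.052 on the third. On the CTRL pcDNA3.1 arrays they were 0.022 and 0.0060, 0.0046 and 0.026, and −0.026 and −0.035. The second control array ran against the others, and the first FMR4 pcDNA3.1 array was flat over all genes. Among genes above the median level all 3 FMR4 pcDNA3.1 arrays were lower in the longest than in the shortest bin, the first at −0.028 and −0.0033, the second at −0.047 and 0.018 and the third at −0.072 and −0.0082. The CTRL pcDNA3.1 arrays there were at 0.0101 and 0.042, 0.031 and −0.0062, and −0.043 and −0.037. At 6 h the medians by bin were 0.0068, 0.00012, −0.0059 and −0.0020, and in FMR4 siRNA against CTRL siRNA at 24 h they ran the other way, from −0.0076 to 0.020. The grouping by span was chosen after the data were seen and carries no test.

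**Figure D5:**
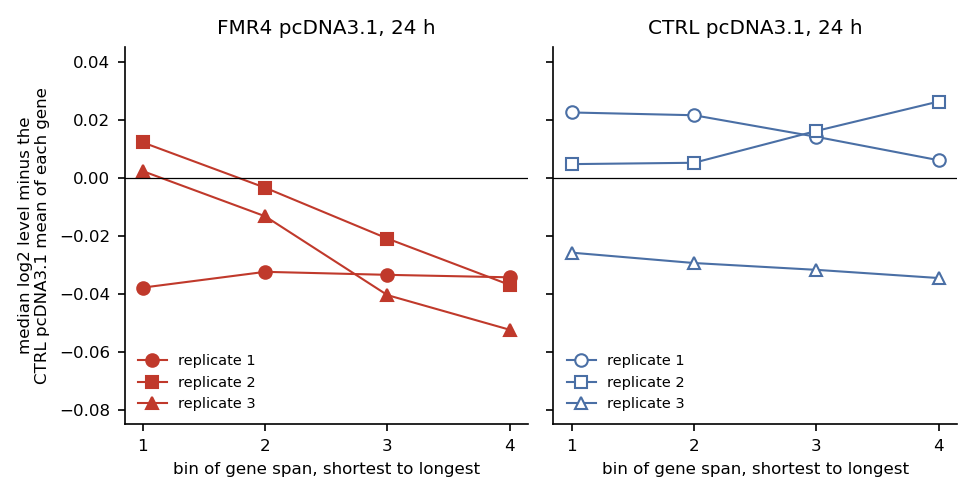
Median log2 level minus the CTRL pcDNA3.1 mean of each gene (vertical axis) by bin of gene span (horizontal axis), 1 line per array, for FMR4 pcDNA3.1 (left) and CTRL pcDNA3.1 (right). The second and the third FMR4 pcDNA3.1 array reach −0.037 and −0.052 in the longest bin, the first is at −0.034 there, and the second control array is the highest there at 0.026.

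The median also varied between chromosomes. Chromosomes 19 and 22 had medians of −0.0016 and −0.0014, and chromosomes 4, 18, 13 and 10 had medians of −0.049, −0.045, −0.041 and −0.041. The median span of genes was 14.6 kb on chromosome 19 and 44.8 kb on chromosome 4, and the parts of span and chromosome were not separated. In 10 bins of equal number by level, arrays were apart downwards for 6.09% of the dimmest bin and 16.3% of the brightest bin, while the medians of the bins lay between −0.036 and −0.017. Among 143 groups of at least 15 genes that share the stem of their symbol, 125 had a median below 0, and array medians were apart downwards for 15 and upwards for 0. These included the F-box genes (FBXO stem, 27 of 33 below 0, median −0.049) and the TATA-box-binding protein associated factors (TAF stem, 19 of 23 below 0, median −0.065). FBXO genes had array medians of −0.061, −0.059 and −0.072 in FMR4 pcDNA3.1, against 0.017, 0.0032 and −0.027 in CTRL pcDNA3.1.

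The effect at 24 h was set against that of the same plasmids at 6 h, on other arrays. At 6 h 0 genes (0%) passed the test in either direction, and 372 (2.02%) had an unadjusted p under 0.05, 178 (0.968%) higher and 194 (1.05%) lower. At 6 h 50.4% of genes were below 0, and the arrays were apart for 633 genes (3.44%) upwards and 770 genes (4.19%) downwards. The difference between the effects at both times passed for 0 genes, with 340 (1.85%) at an unadjusted p under 0.05. The direction was the same at both times for 10329 genes (56.2%), and across genes, which are not independent replicates, Pearson's r was 0.13. *PCDHA4*, a protocadherin, was at 6.926, 7.114 and 7.120 in FMR4 pcDNA3.1, against 7.235, 7.297 and 7.232 in CTRL pcDNA3.1, and its effect at 24 h minus that at 6 h was −0.52 ± 0.11 (SE). For the olfactory receptor gene *OR56A3* it was 0.53 ± 0.14, and for *AGMO* 0.45 ± 0.11. Part of each value came from the 6 h arrays. With single arrays left out, the difference at 24 h alone ran from −0.23 to −0.14 for *PCDHA4*. It ran from 0.097 to 0.27 for *OR56A3* and from 0.25 to 0.29 for *AGMO*. *LRRC37A11P* differed by 0.028 ± 0.058 at 6 h, against −0.27 at 24 h, and *CCR2* by −0.21 ± 0.090 at 6 h. None of the differences between times passed the test (limma).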

How the data were processed

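RNA was measured on Affymetrix Human Gene 1.0 ST arrays as the labels name them. The authors deposited log2 levels normalized with GCRMA per the processing notes, in a table of 33297 probe sets and 24 arrays, and gene names came from the platform annotation (21214 probe sets with a gene, 12083 without). Symbols were updated through gene IDs, and a gene was read by its probe set of highest mean. The conditions were fitted together with limma 3.58.1 in R 4.3.3, with 1 mean for each of 8 conditions on 24 arrays and Benjamini-Hochberg adjustment over the 21214 named probe sets, which left 16 residual degrees of freedom (median of 22 after moderation). Intervals are 95% confidence intervals of that fit. Tables and plots were made with Python 3.11.15 and matplotlib 3.10.9. The code of the fit was checked on simulated data with known changes. That check set no requirement on finding changes as small as those seen here, so it does not show that they would be found. Arrays give no read depth, so that the number of arrays limits precision.

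Genes named were the 10 expressed genes on each side of lowest p whose arrays did not overlap, 5 of the rest on each side, *FMR1*, its paralogs and neighbours, genes the study followed, the members of lowest p of each list, and the genes of lowest p between times. Members listed because their arrays did not overlap, *OR2T4*, *MTM1*, *SLITRK2* and the groups by stem, span and chromosome were chosen after their values were seen. The members, lists and tests were chosen with earlier results of these data known. No list was tested as a set. Alternatives were fits to fewer arrays, array weights, trended robust moderation, other scalings, removal of dim probe sets, averaging of probe sets, a replicate block and leaving out each array.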

Additional observations from a re-analysis of the deposited data

Results flagged for a closer look

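The kinesins were marked because the sign of their array medians against the control mean differed between times. The median of their differences at 24 h minus that at 6 h was −0.064, since on all 3 FMR4 pcDNA3.1 arrays of 24 h the median kinesin lay below the CTRL pcDNA3.1 mean and on all 3 of 6 h above it. At 6 h the FMR4 pcDNA3.1 medians (0.0044, 0.0016 and 0.029) lay within those of CTRL pcDNA3.1 (−0.037, −0.011 and 0.063), so no upward shift stood out there. The difference between times was not tested for the list, and among all 47 families no other had medians on opposite sides in this way.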

How the results depend on the processing

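No gene passed the test under any alternative, also with all probe sets tested together. The count at an unadjusted p under 0.05 was 602 and became 1029 in a fit to the 6 arrays compared, 1156 in a fit to the 12 plasmid arrays and 1168 with array weights, and 348 to 851 when single arrays were left out, with 348 without the second control array. The higher genes, 118, became 206, 229 and 242 in the same fits, 322 after quantile normalization, 260 after median centring and 73 with dim probe sets removed, and 86 to 184 with single arrays left out. The lower genes, 484, became 823, 927 and 926 in the same fits, 271 after quantile normalization, 249 after median centring, and 251 to 718 with single arrays left out, with 251 without the second control array. The median over all genes was −0.00031 after quantile normalization and −0.0033 after median centring. Families with a median below 0, 44, were 27 after median centring, 22 after quantile normalization and 23 with the trend in level subtracted, and those below the median of all genes, 24, were 19 to 26. Same-numbered arrays of FMR4 pcDNA3.1 and CTRL pcDNA3.1 at 24 h had correlated deviations in the third pair only (correlations of −0.039, −0.094 and 0.14). The first FMR4 pcDNA3.1 array correlated with the second control array at 0.14, and the second with the first control array at 0.12. At 6 h the same-numbered pairs had 0.075, 0.15 and 0.12. With the number as a replicate block 0 genes passed and 591 had an unadjusted p under 0.05, 123 higher and 468 lower. That block follows the numbers, so it would mispair the first and second arrays of 24 h if the other pairs shared a batch, which was not tested. For the 83 genes printed with a value, 1308 of 1316 values under the alternatives kept their direction. Many of these genes were chosen by low p or by arrays that did not overlap. Where arrays do not overlap, leaving out an array cannot turn the sign, so the count says little about stability. *GAPDH* was 0.013 after median centring, *MALAT1* was 0.019 with probe sets averaged, and with single arrays left out *GAPDH* ran from −0.024 to 0.0075, *MALAT1* from −0.11 to 0.059, *FXR2* from −0.070 to 0.0064, *AFF2* from −0.0024 to 0.17 and *FMR1NB* from −0.078 to 0.036. The cause was not tested. Depth is set by 3 arrays a group, which put the median half-width of the interval at 0.166.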
